A study of Mus musculus with 12 samples.

Results

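A group of 8 genes of ceramide synthesis were followed across 4 isolated mouse germ cell types: the ceramide synthase genes Cers2, Cers3, Cers4, Cers5 and Cers6, the desaturase gene Degs1, and Sptlc1 and Sptlc2 of serine palmitoyltransferase. They were the probe sets whose symbol in the platform annotation was one of these names, 13 probe sets of 29131 with 1 gene symbol and 8 genes of 15964. Each probe set was read on total RNA of type A and of type B spermatogonia (mitotic germ cells), of pachytene spermatocytes (cells in meiotic prophase) and of round spermatids (haploid cells), on 1 of 3 Affymetrix designs (U74Av2, U74Bv2 and U74Cv2). The labels give 1 array per cell type and design, 12 arrays in all, and state no strain, age or isolation method. The differences below therefore lack a replicate check and carry no p-value, and the small number of arrays limits the precision. The set was chosen on the signal of Cers3, which read highest in pachytene spermatocytes, so the Cers3 profile is given as a description of the values behind that choice.

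Sphingolipids are built from a sphingoid base and a fatty acid. Serine palmitoyltransferase, whose core is formed by the products of Sptlc1 and Sptlc2, makes the first intermediate in the endoplasmic reticulum, and ceramide synthases then attach a fatty acid whose chain length depends on which synthase acts. CERS5 and CERS6 prefer palmitoyl chains, CERS2 and CERS4 longer ones, and CERS3, known from testis and skin, the longest, including the very long polyunsaturated chains found in testis sphingolipids. DEGS1 places the double bond that turns dihydroceramide into ceramide.

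The start regions of Cers3, the gene that peaked in pachytene spermatocytes, and of Cers5 and Sptlc2, which read lower there than in type B cells, are shown because these members differed in direction. Each is the 250 bases before an annotated start, 5′ to 3′ on the gene's strand, from RefSeq on build GRCm38.p6. Capitals mark every match, on either strand, to AACNG (a MYB core), GTTGC (a half-site of RFX factors), TGACGT (a cAMP response element core), TATAAA (the TATA box) or GGGCGG (the GC box). The first window is chr7:66743254-66743503 on the plus strand, the second chr15:99772516-99772765 on the minus strand and the third chr12:87388356-87388605 on the minus strand.
Cers3: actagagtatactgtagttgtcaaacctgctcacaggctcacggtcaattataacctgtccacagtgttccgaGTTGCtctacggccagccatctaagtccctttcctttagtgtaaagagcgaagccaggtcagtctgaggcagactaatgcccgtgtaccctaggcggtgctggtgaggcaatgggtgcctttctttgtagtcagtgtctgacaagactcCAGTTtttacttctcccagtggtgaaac
Cers5: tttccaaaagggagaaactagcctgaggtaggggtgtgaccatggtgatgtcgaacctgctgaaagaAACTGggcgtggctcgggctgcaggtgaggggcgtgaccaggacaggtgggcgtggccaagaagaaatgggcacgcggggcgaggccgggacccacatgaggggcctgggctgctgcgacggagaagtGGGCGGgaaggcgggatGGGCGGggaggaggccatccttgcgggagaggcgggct
Sptlc2: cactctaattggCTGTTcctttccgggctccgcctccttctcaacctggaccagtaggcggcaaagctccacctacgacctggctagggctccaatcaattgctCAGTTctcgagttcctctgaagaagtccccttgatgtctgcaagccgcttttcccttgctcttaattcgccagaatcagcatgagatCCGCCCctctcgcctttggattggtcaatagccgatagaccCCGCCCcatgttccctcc
The RefSeq span of Cers3 begins further upstream, so its window belongs to 1 of its annotated starts. The Cers3 window held 6 CpG dinucleotides, the median of all 32851 windows of this length, against 16 for Cers5 and 11 for Sptlc2. It held 1 match to AACNG on the minus strand, 28 to 24 bases before the start, and 1 to GTTGC on the plus strand, 177 to 173 bases before it. The Cers5 window held 2 GC boxes and 1 match to AACNG, and the Sptlc2 window 2 GC boxes and 2 matches to AACNG. Among the windows not shown, a Cers2 window held 5 CpG dinucleotides and no GC box. Another Cers2 window held 24 CpG dinucleotides, 2 GC boxes, 2 matches to AACNG and 1 to GTTGC. The windows of Cers6 and Degs1, which also read lower in pachytene than in type B cells, held no match to any of these motifs. The Cers4 window held 1 GC box and 4 matches to AACNG, and the Sptlc1 window 1 GC box. No cAMP response element core or TATA box was found in the windows of any of the 8 genes. The MYB core occurred in 74.2%, the RFX half-site in 29.9%, the cAMP response element core in 6.47%, the TATA box in 12.4% and the GC box in 32.7% of all windows, and no match is evidence of a bound factor.

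Signals are given in the authors' MAS5 units after scaling. A floor lay at 50.03 units on U74Av2 and U74Cv2 and at 50.01 on U74Bv2, and a fold against a cell type under it is a lower bound, given with the words at least. Negative control probe sets read up to between 12.9 and 103.5 units on the 12 arrays. Signals of the same control probe set varied in their log2 ratios between the 3 designs with an SD of 0.23 from type A to type B, 0.22 from type B to pachytene and 0.40 from pachytene to round spermatids. This is a technical spread and no error between cell preparations. In these whole-RNA preparations, fewer cells of a type and less RNA per cell cannot be told apart. Of the 8 pachytene markers on the arrays 8 were over the floor in pachytene spermatocytes, with a summed signal of 40274 against 2407 in type A, 1865 in type B and 33757 in round spermatids. Of 8 round spermatid markers, 7 were over the floor in round spermatids with a sum of 32228. In pachytene spermatocytes 5 of the 8 were also over the floor, with a sum of 4206. Not every marker followed its sum. From type A to round spermatids the pachytene marker Sycp1 read 367.5, 318.7, 220.0 and 454.0, lowest in pachytene. Sycp3 read only 60.4 in pachytene spermatocytes. The spermatid marker Spaca1 read 57.7, 60.4, 38.1 and 20.5, lowest in round spermatids.

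Cers3 was read by 1 probe set, 132009_at on U74Cv2, with a signal of 58.9 in type A, 12.5 in type B, 4417 in pachytene spermatocytes and 279.9 in round spermatids. Pachytene spermatocytes stood far over the rest, round spermatids came next, and both spermatogonial types lay under the highest negative control of their arrays, 69.1 and 103.5. In pachytene spermatocytes Cers3 was at least 88.3-fold over type B, 75.0-fold over type A, from a signal under that control, and 15.8-fold over round spermatids. Its round spermatid signal was at least 5.60-fold over type B spermatogonia and itself over the highest negative control of its array, 59.0. A pachytene signal 4-fold or more above every other cell type was found for 0.608% of the 13003 genes that passed the floor in any cell type. By the ratio of pachytene to the next cell type Cers3 ranked 2 of 13003, after 1700040D17Rik at 30.6-fold and before 4930524B15Rik at 10.2-fold. This rank describes the value that chose the gene and has no second probe set of Cers3 beside it.

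**Figure D1:**
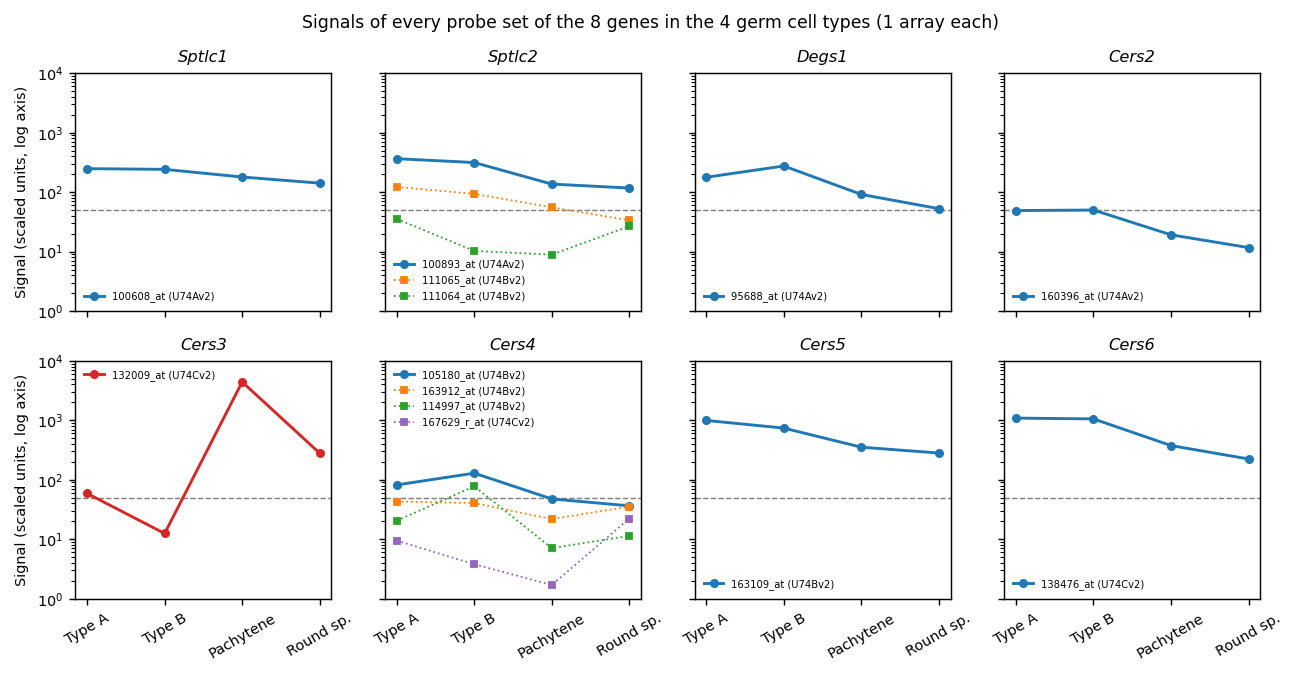
Signal in scaled MAS5 units (log axis) of each of the 13 probe sets in the 4 germ cell types, 1 array per point and 1 panel per gene. Solid lines are the probe set that represents the gene, dotted lines its others, and the dashed line is the floor near 50 units. Cers3 stands at 4417 in pachytene spermatocytes, whereas 6 of the other 7 genes are highest in type A or type B spermatogonia and Cers2 lies at or under the floor.

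**Figure D2:**
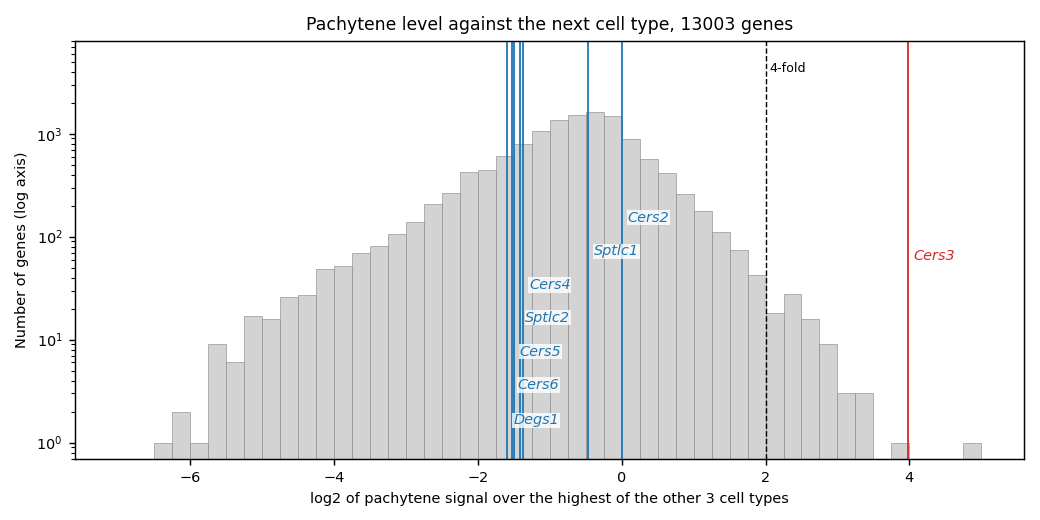
Histogram of the log2 ratio of the pachytene signal to the highest of the other 3 cell types for 13003 genes (log count axis). Vertical lines mark the 8 genes and the dashed line a ratio of 4-fold. Cers3 lies at 3.98, and the other 7 genes lie between -1.59 (Degs1) and 0.00 (Cers2).

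None of its relatives shared this profile: 6 of the other 7 read highest in a spermatogonial type, and Cers2 lay at the floor. Counting any margin over the floor, as for Cers2, all 7 were highest there, as were 58.6% of 13003 genes. Cers6, a palmitoyl-preferring synthase, had signals of 1088 in type A, 1056 in type B, 376.0 in pachytene spermatocytes and 223.8 in round spermatids. The spermatogonial signals lay together and both later types lay under them, with pachytene 2.81-fold lower than type B. Cers5, with the same preference, read 994.6 in type A, 739.3 in type B, 352.7 in pachytene spermatocytes and 281.6 in round spermatids. It was 2.10-fold lower in pachytene than in type B cells and 3.53-fold lower in round spermatids than in type A. Cers6 was read on U74Cv2, as was Cers3, so their opposite directions were seen on the same arrays.

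The 2 synthases of longer chains read low. Cers4 had 4 probe sets, and the one with the highest mean, 105180_at, read 82.0 in type A, 129.2 in type B, 47.6 in pachytene spermatocytes and 36.5 in round spermatids. Only the spermatogonial signals were over the floor, and pachytene spermatocytes were at least 2.58-fold lower than type B. A second Cers4 probe set, 114997_at, was over the floor in type B spermatogonia alone, at 77.7, and 163912_at and 167629_r_at were under it in all 4 cell types. Cers2, on 1 probe set, read 49.1, 50.1, 19.2 and 11.7 in type A, type B, pachytene spermatocytes and round spermatids. Its only signal over the floor exceeded it by under 1 unit, so no change of Cers2 could be read with this floor. The type A, type B and pachytene signals of Cers2 were over the highest negative controls of their arrays, 17.2, 32.7 and 12.9. The round spermatid signal was under that of its array, 28.4. With no floor the log2 ratio of pachytene to type B was -1.38, and a lower floor left a bound of -1.0.

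Of the entry enzyme, Sptlc1 varied least among the members over the floor in all 4 cell types. Its signals were 248.7 in type A, 241.9 in type B, 179.9 in pachytene spermatocytes and 141.9 in round spermatids, so it was 1.34-fold lower in pachytene than in type B. Sptlc2, its catalytic partner, read 365.7, 315.1, 136.8 and 117.4 in the same order on its brightest probe set and was 2.30-fold lower in pachytene than in type B. The spermatogonial signals of both genes lay over the later ones, and for Sptlc2 the gap between the pairs exceeded that within them. A second Sptlc2 probe set, 111065_at on U74Bv2, gave 122.6, 93.6, 55.6 and 33.6, which is 1.68-fold lower in pachytene than in type B. The third, 111064_at, was under the floor throughout.

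Degs1 read 178.3 in type A, 275.6 in type B, 91.6 in pachytene spermatocytes and 52.8 in round spermatids. Type B was highest and round spermatids lowest, just over the floor. Degs1 was 3.01-fold lower in pachytene than in type B cells and 1.95-fold lower than in type A.

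At the step from type B spermatogonia to pachytene spermatocytes 5 of the 8 genes (Cers4, Cers5, Cers6, Degs1 and Sptlc2) were at least 2-fold lower, against 23.2% of 12281 genes. Only Cers3 was at least 2-fold higher, against 17.1% of genes. Scaled to a common median, only Cers6 and Degs1 stayed at least 2-fold lower, and scaled to the bacterial spike-in controls none of the 5 did. The log2 ratios then lay between -0.43 (Sptlc2) and -0.86 (Cers4), and Cers3 stayed higher under both scalings, by at least 6.65 and 6.56. Sptlc1 changed direction under them, to 0.09 and 0.35. The median log2 ratio over all genes was -0.28 in the main scaling and 0.18 and 0.35 under these, with 12.5% and 10.1% of genes at least 2-fold lower and 25.5% and 29.0% higher.

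The summed signals of fibroblast, myoid, Sertoli and macrophage markers were also lower in pachytene than in type B cells, whereas those of Leydig markers were close. The summed signal of 5 fibroblast markers was 3959 in type A, 8958 in type B, 114 in pachytene spermatocytes and 352 in round spermatids, with 5, 5, 1 and 1 of them over the floor. For 5 myoid markers the sums were 2460, 3615, 475 and 345, with 4, 5, 4 and 2 over the floor. For 9 Sertoli markers they were 5819, 4165, 2769 and 933, with 8, 8, 7 and 3 over the floor, and Amh was under the floor in all 4. From type B to pachytene Rhox5 (64.9 to 112.5) and Fshr (159.5 to 172.5) were higher. Sox9, Wt1, Gata4, Clu, Cldn11 and Inhbb were lower, and Clu alone read 1717 in pachytene spermatocytes. The 6 Leydig markers on the arrays summed to 434, 718, 702 and 209, with 4, 5, 3 and 1 over the floor. Single Leydig markers differed in both directions from type B to pachytene. Cyp17a1 (254.1 to 366.5) and Cyp11a1 (66.8 to 134.3) were higher. Hsd3b1 (141.6 to 37.2), Star (158.8 to 98.5) and Insl3 (59.6 to 26.4) were lower. The 8 macrophage markers summed to 500, 845, 348 and 443, with 4, 6, 2 and 3 over the floor, and the 1 erythroid marker on the arrays read 309, 866, 102 and 93. Spermatogonial markers, 7 of 8 on the arrays, summed to 5811, 4384, 682 and 1241. The part of other cells in the lower signals of Cers4, Cers5, Cers6, Degs1 and Sptlc2 was not tested.

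Between type A and type B spermatogonia no member was at least 2-fold higher (3.92% of 11951 genes) or lower (3.94%). Cers4 and Degs1 were 1.58-fold and 1.55-fold higher in type B, and Cers5 was 1.35-fold lower. The differences of Cers6 and Sptlc1, -0.04 on the log2 scale each, and of Sptlc2, -0.21, lay under the technical SD of that step. Under spike-in scaling Cers5 and Sptlc2 were at least 2-fold lower in type B, where 33.8% of all genes were.

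From pachytene spermatocytes to round spermatids Cers3 alone was at least 2-fold lower, at 15.8-fold, against 13.7% of 11203 genes. No member was at least 2-fold higher, against 10.5%. The members over the floor in both were 1.74-fold (Degs1), 1.68-fold (Cers6), 1.27-fold (Sptlc1), 1.25-fold (Cers5) and 1.17-fold (Sptlc2) lower. The last 3 differences lay under the technical SD of 0.40, and Cers2 and Cers4 were under the floor in both cell types. Degs1 passed 2-fold under spike-in scaling.

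The genes on U74Cv2 whose profile was most like that of Cers3 were found by the distance between log2 profiles over the 4 cell types, each centred on its own mean, among 3531 genes. The nearest were Ndufaf3, an assembly factor of respiratory complex I, at 1.22, Tcam1, a testicular cell adhesion molecule, at 1.23, and the glucose transporter gene Slc2a3 at 1.24. They were followed by 1700029M20Rik at 1.48 and Cracd, a regulator of actin capping, at 1.54. Ndufaf3 read 16.5 in type A, 12.5 in type B, 1914 in pachytene spermatocytes and 384.0 in round spermatids. Tcam1 read 277.5, 100.4, 6536 and 686.8 in that order. Each of the 5 was highest in pachytene spermatocytes and next highest in round spermatids, as Cers3 was. This likeness follows from the choice by distance and is no separate result. None of the 5 was among the 5 nearest by Pearson correlation over the 4 cell types, so the choice of neighbours rests on the measure. Slc2a3, 1700029M20Rik and Cracd were read by probe sets ending in _f_at, a mark of probes shared among sequences.

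**Figure D3:**
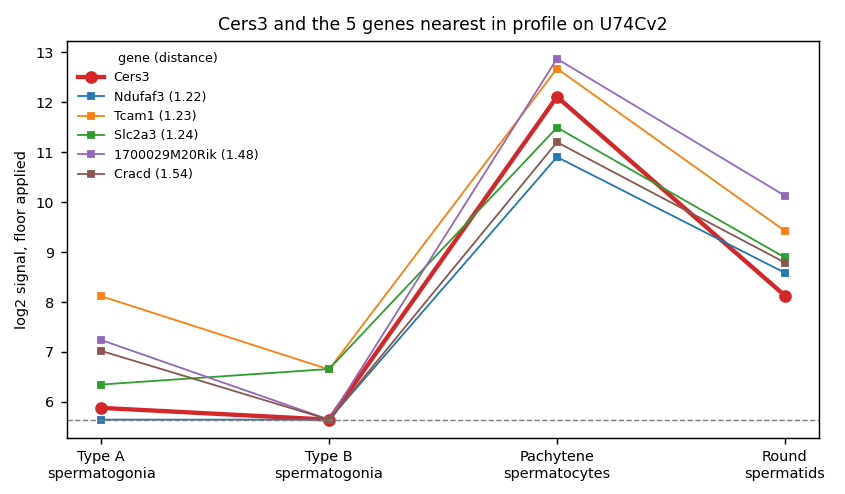
Signal on the log2 scale with the floor applied (dashed line) of Cers3 and of the 5 genes nearest to it in profile on U74Cv2, with the distance in the legend, in the 4 germ cell types. All 6 lines peak in pachytene spermatocytes, and Cers3 drops furthest to round spermatids, by 3.98.

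The wider sphingolipid pathway was read from 6 lists with 85 genes, 78 of them on the arrays and 62 with a signal over the floor in any cell type. At the step from type B spermatogonia to pachytene spermatocytes 11 of 60 genes with a ratio, the members included, differed upward by 2-fold or more and 23 of them downward, with a median log2 ratio of -0.48 against -0.28 over all genes. The background was 17.1% higher and 23.2% lower. Under the common median this list median was 0.00 and under spike-in scaling 0.09. The medians over all genes under these scalings were 0.18 and 0.35, so the list median lay below that of all genes under each of the 3 scalings while its sign changed with them.

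The list of serine palmitoyltransferase and its regulators held 7 genes on the arrays, 5 with a ratio of pachytene to type B. The median of these 5 was -1.20 on the log2 scale, against -0.28 over all genes. Pachytene signals lay 2-fold or more below type B for 3 of the 5, against 23.2% of all genes. Signals that far above type B were read for 0 of the 5, against 17.1%. Sptlc3, an alternative catalytic subunit, read 156.5, 293.3, 54.5 and 80.9 from type A spermatogonia to round spermatids and was 5.38-fold lower in pachytene than in type B. The pachytene reading was below the top negative control of that array, and its second probe set was under the floor in both. Kdsr, the reductase that follows serine palmitoyltransferase, read 686.8, 413.4, 170.1 and 171.2 and was 2.43-fold lower. The other Kdsr probe sets were under the floor throughout. Sptssa, a small activating subunit, was 3.91-fold lower in round spermatids than in pachytene spermatocytes, with signals of 74.6 and 291.6.

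Of the 7 ceramide synthase and desaturase genes on the arrays 6 had a ratio of pachytene to type B. At least 2-fold higher was 1 and lower were 4, all of them members described above. Over all genes 17.1% were higher and 23.2% lower. Degs2, the second desaturase, was under the floor in all 4 cell types. The probe set listed for Cers1 is shared with Gdf1 and was not used here.

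The list of acyl chain elongation and modification, which supplies the fatty acids that ceramide synthases attach, held genes that differed in both directions. Of 16 genes on the arrays 12 had a ratio of pachytene to type B, with a median of -0.36. Of these 12 genes 2 were at least 2-fold higher and 4 lower, against 17.1% and 23.2% of all genes. Elovl2, the elongase of polyunsaturated chains, read 316.4 in type A, 105.8 in type B, 920.4 in pachytene spermatocytes and 487.0 in round spermatids. Like Cers3 it was highest in pachytene spermatocytes and next in round spermatids, 8.70-fold higher in pachytene than in type B. That reading came from a probe set ending in _r_at, with a log2 ratio of 3.12, and the other probe set, 25.7 in type B, under the floor, and 59.2 in pachytene, leaves a lower bound of 0.24. Hacd1, a dehydratase of chain elongation, read 245.5, 559.9, 3178 and 1153 and was 5.68-fold higher in pachytene than in type B. Its second probe set gave a log2 ratio of 1.14 in the same direction.

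Other genes of this list were lower at that step. Hsd17b12, the reductase of chain elongation, was 4.03-fold lower in pachytene than in type B, and Elovl5, the elongase of shorter polyunsaturated chains, 3.25-fold lower. The other Hsd17b12 probe sets were under the floor throughout. Elovl5 read 958.4, 788.1, 242.8 and 100.6. Fads2, a desaturase of polyunsaturated chains, read 4943, 2722, 1045 and 136.3, each cell type below the one before. It was 2.61-fold lower in pachytene than in type B and 7.67-fold lower in round spermatids than in pachytene. A second Fads2 probe set over the floor in all 4 cell types gave smaller log2 ratios of -0.60 and -1.72 at these steps, the first of them under 2-fold. Fa2h, the fatty acid hydroxylase, was under 2-fold at each step but read 271.5 in type A and 1295 in round spermatids. From pachytene spermatocytes to round spermatids Hacd2 was 4.0-fold higher on its brightest probe set, and its second, 165617_at, was under the floor in round spermatids, a bound of -1.97 on the log2 ratio in the opposite direction.

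Enzymes that use ceramide, and the proteins that carry its products, also differed in both directions. For complex sphingolipid synthesis and transport 16 genes on the arrays had a ratio of pachytene to type B, with a median of -0.37. Of these 16 genes 5 were at least 2-fold higher and 4 lower, against 17.1% and 23.2% of all genes. Cptp, the ceramide 1-phosphate transfer protein, was at least 23.7-fold higher, with signals of 109.5, 34.1, 1186 and 1453. Its second probe set gave a log2 ratio of at least 3.75. Samd8, which makes ceramide phosphoethanolamine, was at least 9.65-fold higher, and Plekha8, a glycosphingolipid transfer protein, 3.82-fold. For Plekha8 the second probe set, 115801_at, gave -0.33 on the log2 scale. Samd8 read 125.8, 48.3, 482.6 and 1641, from which round spermatids were 3.40-fold over pachytene spermatocytes. The type B signal of Samd8 was below the top negative control of that array, 103.5. Its second probe set, 169146_i_at, was under the floor throughout.

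On the lower side Ugt8a, the galactosyltransferase that makes galactosylceramide, was at least 11.2-fold lower in pachytene than in type B, with signals of 377.6, 558.5, 12.4 and 108.2. Its other probe sets reached 63.9 at most and were under the floor in pachytene, which leaves bounds of -0.27 and -0.35 on the log2 ratio. St3gal5, the sialyltransferase of ganglioside synthesis, was 3.16-fold and St3gal2, another sialyltransferase, 2.43-fold lower. The sphingomyelin synthase gene Sgms2 differed at the last step, with signals of 322.7, 317.6, 262.8 and 1932. Round spermatids stood apart from the other 3 cell types, at 7.35-fold over pachytene spermatocytes. The second Sgms2 probe set, 115926_at, was under the floor in every cell type, so this difference rests on 1 probe set.

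In the list of sphingolipid breakdown 21 genes were on the arrays, and 13 had a ratio of pachytene to type B, with a median of -0.97. Of these 13 genes 2 were at least 2-fold higher and 6 lower, against 17.1% and 23.2% of all genes. Arsa, the lysosomal sulfatase that acts on sulfatide, read 15.5 in type A, 13.9 in type B, 1045 in pachytene spermatocytes and 969.6 in round spermatids. The spermatogonial signals were under the floor and the later ones far over it, at least 20.9-fold apart between type B and pachytene. Its second probe set, 161286_f_at, read 24.3 in type B, under the floor, and 50.4 in pachytene, just over it, which leaves a lower bound of 0.01 on the log2 scale. The ceramidase gene Acer3 was 5.67-fold lower and Asah1, the acid ceramidase, at least 3.20-fold lower in pachytene. The second Asah1 probe set was under the floor throughout. Smpd3, a neutral sphingomyelinase, was 7.21-fold higher in round spermatids than in pachytene spermatocytes, from 147.9 to 1066. Its second probe set, 162578_at, read 36.7 in pachytene, under the floor, and 83.9 in round spermatids, a lower bound of 0.75 on the log2 scale.

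Of 11 sphingosine 1-phosphate genes on the arrays 8 had a ratio of pachytene to type B, with a median of -0.30. Of these 8 genes 1 was at least 2-fold higher and 2 lower, against 17.1% and 23.2% of all genes. The higher gene, Sgpp2, a phosphatase that returns sphingosine 1-phosphate to sphingosine, read 87.2, 75.2, 703.1 and 93.8. It stood over the other 3 cell types in pachytene alone, 9.35-fold over type B and 7.50-fold over round spermatids. In type B it read below the top negative control of that array, 103.5. Sgpl1, the lyase that ends the pathway, was 4.23-fold lower in pachytene than in type B, a log2 ratio of -2.08, and its second probe set, at 124.2 and 61.9, gave -1.0. The receptor gene S1pr3 was 3.16-fold lower on U74Bv2, and its probe set on U74Av2 gave a log2 ratio of 0.03. Sgpp1, a second phosphatase, was 8.26-fold lower in round spermatids than in pachytene spermatocytes, from 496.2 to 60.1. Its probe set 94501_at read 126.2 and 32.3, the latter under the floor, a bound of -1.33 on the log2 ratio. The probe set 109518_at was under the floor in both.

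**Figure D4:**
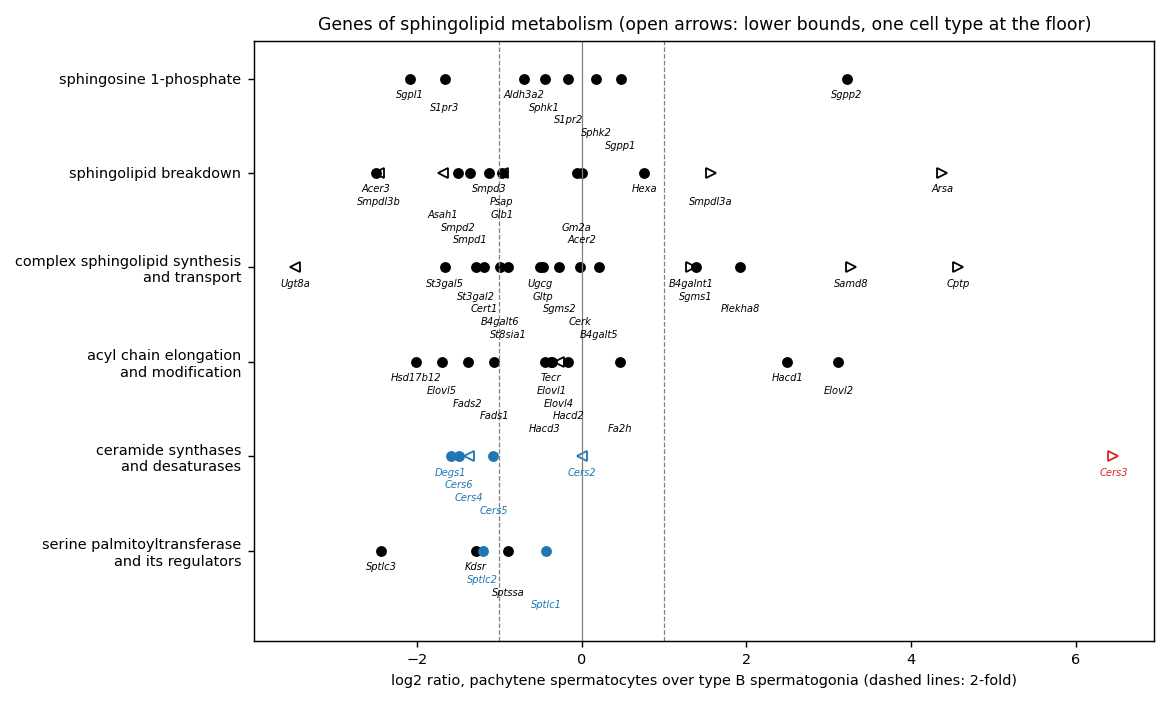
Log2 ratio of pachytene spermatocytes over type B spermatogonia for the genes of 6 sphingolipid lists with a signal over the floor in at least 1 of the 2 cell types, 1 array each. Filled points were over the floor in both, open arrows are bounds, and dashed lines mark 2-fold. Cers3 lies at 6.46, apart from the other ceramide synthase and desaturase genes, which lie between -1.59 and 0.00.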

How the data were processed

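The deposited values are MAS5 signals, per the submitters' processing notes: the authors give 1 intensity per probe set, not logged. Its version and settings are not stated there. The deposited arrays share a trimmed mean (2% off each end) of 125.02 to 125.10. Here every array was brought to its design's geometric mean of these, signals under 0.4 of that mean were raised to this floor, and log2 ratios were formed within a design (Python 3.11.15, pandas 2.3.3, NumPy 2.4.6). Names came from the platform annotation, updated by Entrez identifier to RefSeq of GRCm38.p6 (29044 matches among 29131 probe sets with 1 symbol; 724 listed several and 6846 none). Where a gene had several probe sets, the brightest on average represented it. The text names all members, up to 3 genes per direction, list and step among those at least 2-fold different, and the 5 genes nearest to Cers3. Fa2h, Degs2, 1700040D17Rik and 4930524B15Rik were named after their values were seen. No test was run, and the ratio script was tested on simulated data. Members and lists were chosen with earlier results of these data known. Promoters were found for all 8 members. Alternatives covered scaling, floor, probe set, design, fold and likeness measure.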

Additional observations from a re-analysis of the deposited data

How the results depend on the processing

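No paired analysis was possible because each cell type has 1 array per design. Cers3 stayed higher in pachytene than in type B in all 8 alternatives that could read it, between 5.46 and 8.46 on the log2 scale. These were bounds wherever type B was at the floor. Its ratio over the next cell type stayed between 3.54, under spike-in scaling, and 3.98. Cers3 has 1 probe set without a special ending, so leaving out special endings or averaging probe sets could not change either value. The floor settings could not change the second ratio, as both signals lay over every floor used. Only the other scalings could have moved that ratio. Of the 5 genes most like Cers3, 2 stayed without probe sets of special endings and 0 by Pearson correlation. Depth, as signal over background, limits Cers2, Cers4 and the spermatogonial level of Cers3. U74Av2 carries 4 of the 8 members and no Cers3, so fewer genes were read there. Some list genes were also read there by another probe set. In pachytene over type B Ugt8a gave -0.35 there against -3.48, and S1pr3 0.03 against -1.66. The stricter 4-fold threshold lowers counts by its definition, and the cause of the other shifts was not tested.

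Members at least 2-fold lower in pachytene than in type B numbered 2 under the common median, 0 under spike-in scaling, 2 on U74Av2 only, 3 by the mean over probe sets and 0 at 4-fold, against 5. None was higher on U74Av2 only. In type B over type A 2 members were lower under spike-in scaling, 1 with no floor and 1 at 0.5 of the floor, against 0. In round spermatids over pachytene 2 were lower under spike-in scaling and 0 on U74Av2 only, against 1.

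Over the pathway lists in pachytene over type B, 12 genes were lower under the common median, 8 under spike-in scaling, 10 on U74Av2 only, 13 by the mean over probe sets and 6 at 4-fold, against 23. Higher were 4 on U74Av2 only and 7 at 4-fold, against 11. In the main setting 60 list genes had a ratio at this step. Over all genes 17.1% were higher and 23.2% lower in the main setting. The shares were 25.5% and 12.5% under the common median and 29.0% and 10.1% under spike-in scaling. The list median of -0.48 came to 0.00 under the common median and 0.09 under spike-in scaling. In type B over type A the higher count was 2 under quantile normalization and 6 with no floor, and 0 under spike-in scaling, on U74Av2 only, at 4-fold, by the mean over probe sets and without special endings, against 1. The lower count there was 16 under spike-in scaling, 7 with no floor, 6 at 0.5 of the floor, 1 at double the floor, 1 without special endings, 1 on U74Av2 only, and 0 by the mean over probe sets and at 4-fold, against 3. The list median was -0.74 under spike-in scaling, against 0.01. In the main setting 60 list genes had a ratio at this step. Over all genes 3.92% were higher and 3.94% lower in the main setting. Under spike-in scaling 0.39% of all genes were higher and 33.8% lower, with a median of -0.76. In round spermatids over pachytene the higher count was 12 with no floor, 0 on U74Av2 only, 3 by the mean over probe sets and 2 at 4-fold, against 6. The lower count was 5 on U74Av2 only and 5 at 4-fold, against 12. In the main setting 54 list genes had a ratio at this step. Over all genes 10.5% were higher and 13.7% lower. The sign of S1pr3 in pachytene over type B turned to 0.03 on U74Av2 only. The other 148 values of summaries stayed within 1.5 times the count or within the technical SD.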
